A study of Mus musculus with 6 samples.

Results

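The matrix metalloproteinases (MMP), the ADAM and ADAMTS proteases, the protease-like ADAMTSL proteins and the tissue inhibitors of metalloproteinases (TIMP) were followed in the embryonic mouse salivary gland. Members were chosen by gene symbol, a rule that uses no measured value, but it was set with earlier results of these data known. Of the 24067 genes in the gene table, 84 carried a symbol of these 5 subfamilies. There were 23 named as MMP, 33 as ADAM, 19 as ADAMTS, 5 as ADAMTSL and 4 as TIMP. The samples were E13 submandibular glands (embryonic day 13) from ICR mice, with 3 control libraries and 3 libraries treated with blebbistatin, which stalls non-muscle myosin II, the motor protein that contracts actin filaments. The question of the comparison is how RNA levels differ once this motor is blocked. All 6 libraries share strain, tissue and age, and no genetic change is named for either group. The sources used here give no dose, duration, vehicle or number of glands per library. The series title names epithelial buds, whereas the tissue label names the gland. The labels do not tell whether libraries of 1 group stem from different litters or cultures, so p-values reflect only the spread among these libraries, and that spread may be technical.

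The salivary gland forms when an epithelial bud, wrapped in a basement membrane, splits repeatedly by clefts into branching lobes. MMPs are zinc enzymes that cut collagens, laminins and other matrix proteins, ADAMs are membrane-anchored enzymes that release the outer parts of cell-surface proteins (shedding), and ADAMTS enzymes are secreted proteases of proteoglycans, procollagens and microfibrils. TIMPs bind the active site of MMPs and of some ADAM and ADAMTS enzymes. Most of these proteases are made as inactive precursors, so a transcript level is not an activity.

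The shared chemistry of the 3 protease subfamilies is written in a short stretch of coding sequence, which is shown here because it encodes the residues that hold the catalytic zinc. It was searched as an 11-codon pattern with histidine codons in positions 1, 5 and 11, a glutamate codon in position 2 and a glycine or asparagine codon in position 8. The pattern was found in 59 of the 83 members that had a matched GENCODE transcript (GRCm38.p6, the patch series of mm10), and in 73 of 20628 genes (0.354%) with a coding transcript linked to RefSeq. By subfamily it was found in 22 of 22 MMPs, 20 of 33 ADAMs, 17 of 19 ADAMTS members, 0 of 5 ADAMTSL members and 0 of 4 TIMPs. Adamts8 and Adamts9 gave no match in the 1 transcript searched for each, which says only that this pattern was not in it. Below are the 33 coding bases of 7 members that the results turn on, with the codons of the 3 zinc-binding histidines in capitals.
Mmp2 (chr8:92839279-92839311, plus strand, exon 8): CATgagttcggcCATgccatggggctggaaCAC
Mmp14 (chr14:54437627-54437659, plus strand, exon 5): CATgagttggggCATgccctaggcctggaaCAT
Adam10 (chr9:70754296-70761585, plus strand, across exons 9 and 10): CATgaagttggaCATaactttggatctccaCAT
Adam15 (chr3:89344780-89344812, minus strand, exon 11): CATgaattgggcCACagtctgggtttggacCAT
Adamts4 (chr1:171253210-171253915, plus strand, across exons 3 and 4): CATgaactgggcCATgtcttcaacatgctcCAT
Adamts14 (chr10:61225465-61227123, minus strand, across exons 7 and 8): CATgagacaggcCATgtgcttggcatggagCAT
Adamts16 (chr13:70787149-70791812, minus strand, across exons 8 and 9): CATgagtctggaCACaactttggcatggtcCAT
Over these bases Mmp14 shared 27 of 33 with Mmp2, Adam15 and Adamts14 each shared 22, Adamts16 shared 20, Adamts4 shared 19 and Adam10 shared 18. Adamts4 is 1 of 4 ADAMTS members with an asparagine codon in place of the glycine codon, together with Adamts1, Adamts15 and Adamts20.

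Values are FPKM (fragments per kilobase of transcript, scaled to the library total), so levels can be compared between genes. Depth, estimated from the smallest steps between values, was 27000000 to 32600000 fragments per library, and 11453 to 11592 genes reached 1 FPKM. The summed level of 9 epithelial markers was 1412 to 1808 FPKM in controls and 1364 to 1798 under blebbistatin. Of 11 mesenchymal markers, 6 had a mean under 1 FPKM. Their sum was 282 to 359 FPKM in controls and 338 to 375 under blebbistatin, of which Vim gave 97.3%. That sum hides a high control replicate 1 in other markers. Col3a1 was at 7.26, 1.21 and 0.971 FPKM in control replicates 1 to 3, and Lum at 1.93, 0.254 and 0.263. The sum of 6 endothelial markers lay between 0.549 and 0.681 FPKM in controls and between 0.802 and 0.961 in treated libraries. The higher sum came from Pecam1 and Tek only. Pecam1 was at 0.303 to 0.382 FPKM in controls and 0.422 to 0.553 under blebbistatin, and Tek at 0.193 to 0.22 and 0.362 to 0.375. Kdr, Cdh5, Emcn and Tie1, all far lower in level, had lower treated means. Cdh5 was listed at 0 in every treated library. The sum of 5 skeletal muscle markers lay between 10.4 and 15.2 FPKM in controls and between 7.36 and 10.6 under blebbistatin. The summed red cell markers ranged from 0.179 to 56.7 FPKM across the 6 libraries. The part of these markers in the results on proteases was not tested.

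In these libraries a small set of these genes stood at high levels and most of them were hardly detected. A mean of at least 1 FPKM over the 6 libraries, the filter for testing, was reached by 28 of the 84 members: 6 MMPs, 6 ADAMs, 13 ADAMTS members, 3 TIMPs and no ADAMTSL member. The other 56 lay below it, and 20 of those were listed at 0 in all libraries (14 ADAMs and 6 MMPs). Mmp2 alone made up 26.6% of the summed level of all members. It was followed by Mmp14, Adam10, Adamts17 and Adamts7, and the most abundant inhibitor, Timp2, ranked 6th.

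**Figure D1:**
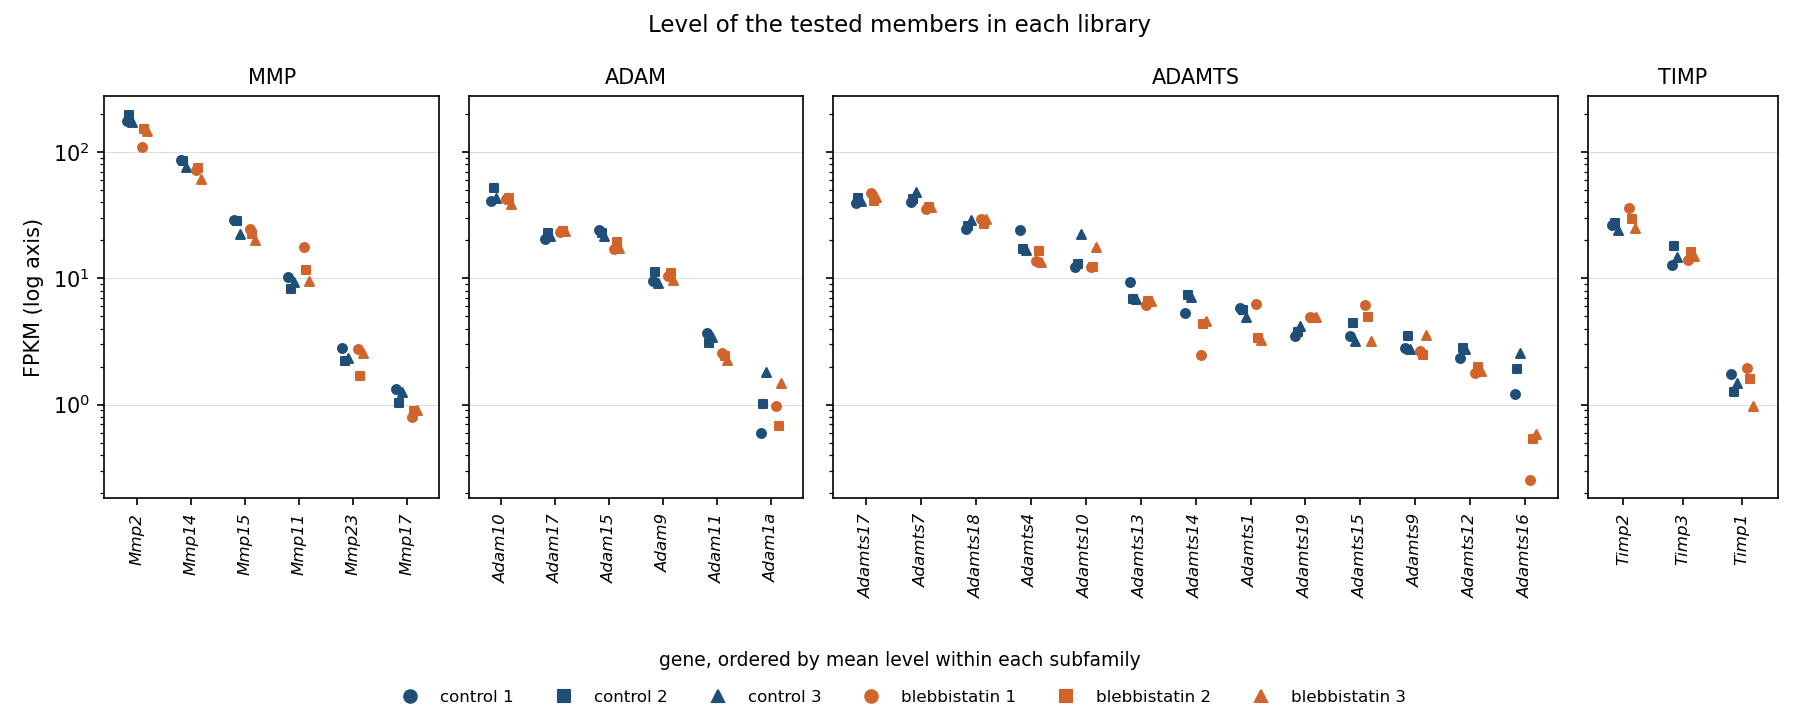
FPKM of the 28 tested members in each of the 6 libraries, on a log axis, with genes ordered by mean level within MMP, ADAM, ADAMTS and TIMP. Blue points are control and orange points are blebbistatin libraries, and the marker shape gives the replicate number; Mmp2 lies highest, between 110 and 198 FPKM.

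No member differed between the groups at an adjusted p under 0.05 (limma on log2(FPKM + 1), Benjamini-Hochberg over 11540 genes). Over all genes tested, 0.0433% passed as lower and 0.0347% as higher. At an unadjusted p under 0.05, 9 of the 28 members were lower in treated libraries and 1 was higher, where 4.9% and 4.46% of all genes were. In 11 members the 3 treated values all lay below the 3 control values and in 2 (Adam17 and Adamts19) they all lay above, where 6.8% of all genes were apart as lower and 7.48% as higher. The mean of log2(FPKM + 1) was lower in treated libraries for 20 of the 28 (71.4%). Their median log2 fold change, treated minus control, was -0.12. Over all genes 44.8% were lower on that scale, with a median of 0.01. Adamts16 and Mmp17 passed the filter only through their control values, which favours a lower direction. Both are counted among the 20 and the 11, and Adamts16 also among the 9. In bulk RNA, fewer cells of a type and less RNA per cell cannot be told apart.

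Summed over all 84 members, the level was 640 ± 22.4 FPKM in controls and 560.0 ± 16.7 under blebbistatin (SD, n = 3). The 6 sums did not overlap between the groups, at 625 to 666 against 550.0 to 579. The MMP sum was 306 ± 18.8 FPKM in controls and 244 ± 18.9 under blebbistatin, also without overlap. Without Mmp2 the MMP sums overlapped, at 112 to 132 FPKM against 94.5 to 118, while those of all other members stayed apart, at 452 to 468 against 404 to 441. ADAMTS sums were 176 to 193 against 164 to 171 FPKM. ADAM sums (102 to 115 against 96.8 to 102 FPKM) and TIMP sums (40.7 to 46.9 against 40.9 to 51.9 FPKM) overlapped.

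**Figure D2:**
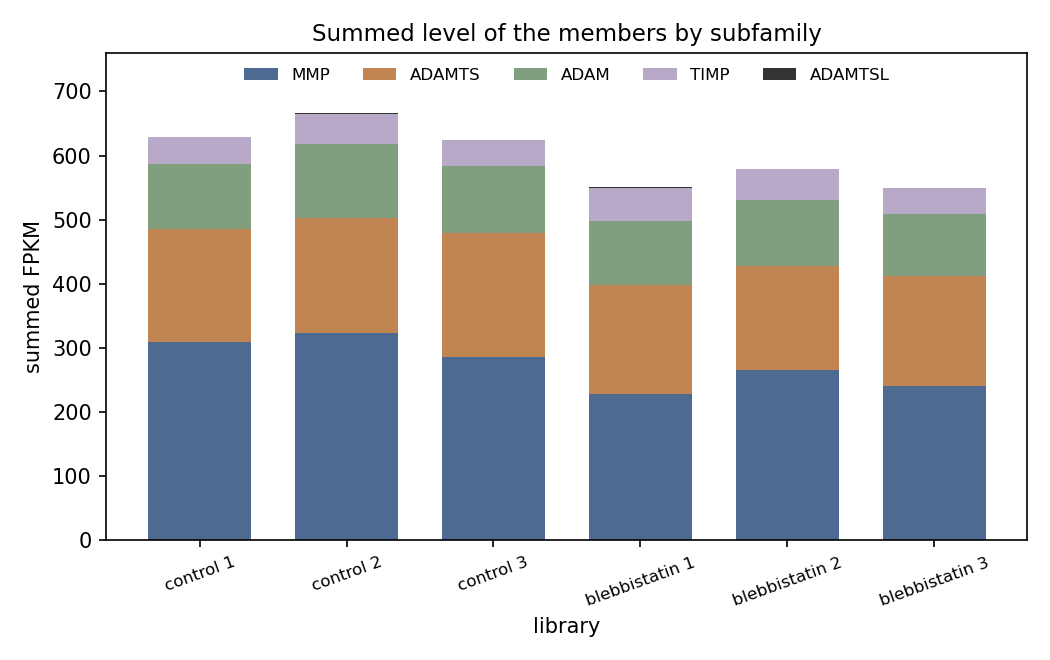
Summed FPKM of the members in each library, stacked by subfamily from MMP at the base to ADAMTSL at the top, where it is barely visible. The 3 control bars reach 625 to 666 FPKM and the 3 blebbistatin bars 550.0 to 579 FPKM.

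Among the MMPs, the 2 most abundant were lower in each treated library than in any control. Mmp2 (gelatinase A, which degrades type IV collagen of basement membranes; chr8:92827327-92853420, mm10) stood at 178, 198 and 173 FPKM in control replicates 1 to 3 and at 110, 153 and 146 in treated replicates 1 to 3. The groups did not overlap, and treated replicate 1 was the lowest library. The log2 fold change was -0.43 ± 0.14 (SE, 95% confidence interval -0.75 to -0.12), with an unadjusted p of 0.0136 and an adjusted p of 0.306 (limma).

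Mmp14 encodes MT1-MMP, a transmembrane collagenase that activates the precursor of Mmp2 at the cell surface with Timp2 as a bridge (chr14:54431603-54441258). It was at 87.4, 84.5 and 76.4 FPKM in controls and 71.6, 74.9 and 61.1 under blebbistatin, apart by a narrow margin between control replicate 3 and treated replicate 2. Its log2 fold change was -0.26 ± 0.11, with an adjusted p of 0.497 (limma). Mmp15 (MT2-MMP), a close relative in the membrane-type group, was at 29.2, 28.3 and 22.3 FPKM in controls and 24.7, 22.4 and 20.1 under blebbistatin, which overlapped.

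The GPI-anchored Mmp17 was at 1.32, 1.04 and 1.26 FPKM in controls and 0.803, 0.891 and 0.903 under blebbistatin, without overlap. It passed the filter only through its control values, and its log2 fold change was -0.24 ± 0.11 (adjusted p = 0.587, limma). Mmp11 (stromelysin-3, activated inside the cell by furin) was the only 1 of the 6 tested MMPs with a higher treated mean, at 10.2, 8.17 and 9.37 FPKM in controls and 17.8, 11.6 and 9.45 under blebbistatin. Treated replicate 1 was the highest library: the log2 fold change was 0.40 with all libraries (adjusted p = 0.622, limma) and 0.17 without it. Mmp23, a small membrane MMP without the usual hemopexin domain, was at 2.44 ± 0.325 FPKM in controls and 2.34 ± 0.562 under blebbistatin (SD, n = 3); pairs of means are given in this order from here on.

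Mesenchymal markers differed widely in level beside these MMPs. Mmp2 lay between 110 and 198 FPKM where Col1a1, the main chain of type I collagen, lay between 0.588 and 3.06 FPKM and Pdgfra, a receptor of mesenchymal cells, at 1.03, 0.717 and 0.626 FPKM in controls and 0.479, 0.418 and 0.558 under blebbistatin. Vim, an intermediate filament gene that is not limited to mesenchyme, was far higher, at 337, 303 and 276 FPKM in controls and 370, 353 and 328 under blebbistatin. Only Vim and the matrix proteoglycan Dcn (1.47 ± 1.10 and 1.83 ± 0.747 FPKM) had higher treated than control means. Every other marker of the 11, Pdgfra and Col1a1 among them, had a lower treated mean. Control replicate 1 was the highest library for every marker but Vim. Pdgfra was the only 1 of the 11 markers whose groups did not overlap. The part of these markers in the MMP values was not tested.

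Among the ADAMs, the 2 principal sheddases were close to level between the groups. Adam10, which releases the outer parts of Notch receptors and cadherins (chr9:70679000-70780229), was at 40.8, 51.7 and 43.0 FPKM in controls and 42.7, 43.1 and 39.1 under blebbistatin, which overlapped. Its log2 fold change of -0.11 ± 0.11 (adjusted p = 0.945, limma) had a 95% confidence interval of -0.36 to 0.14. Adam17, which releases TNF and many ligands of the EGF receptor (chr12:21323508-21373632), was at 20.5, 23.0 and 21.6 FPKM in controls and 23.2, 23.7 and 23.7 under blebbistatin. All treated values lay above the controls, but the log2 fold change was only 0.11 ± 0.08 (adjusted p = 0.840, limma). Adam17 shares 99 exonic bases with Iah1 on the opposite strand, and the sources used here do not say if strand was kept in counting.

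Adam15, a membrane protease with an integrin-binding disintegrin domain (chr3:89339639-89350010), was at 24.0, 22.9 and 21.8 FPKM in controls and 17.2, 19.4 and 17.5 under blebbistatin. The groups were clearly apart and the spread within each was small. The log2 fold change was -0.33 ± 0.09 (95% confidence interval -0.53 to -0.13), with an unadjusted p of 0.00484 and an adjusted p of 0.202 (limma).

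Adam11 was the only tested ADAM without the zinc-binding pattern. It belongs to the non-catalytic ADAMs, which act as binding proteins and are best known from neurons (chr11:102761438-102780262). Its values were 3.71, 3.08 and 3.42 FPKM in controls and 2.54, 2.41 and 2.26 under blebbistatin, without overlap (log2 fold change -0.37 ± 0.10, adjusted p = 0.221, limma). The summed level of 5 neuronal markers was 0.411 to 2.37 FPKM in controls and 1.02 to 1.93 under blebbistatin, and their part in the Adam11 values was not tested. Adam9, a widely expressed sheddase, was at 9.97 ± 1.08 and 10.4 ± 0.649 FPKM, and Adam1a, a gene best known from sperm, at 1.14 ± 0.625 and 1.04 ± 0.402 FPKM.

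Of the 13 tested ADAMTS members, 6 were lower and 1 was higher without overlap between the groups, where 6.8% and 7.48% of all genes tested were. None passed the adjusted threshold. Adamts16 (chr13:70727807-70841810), of the pair it forms with Adamts18, was at 1.21, 1.91 and 2.58 FPKM in controls and 0.253, 0.530 and 0.587 under blebbistatin. Every treated value was under the lowest control value. The treated mean of 0.456 ± 0.179 was 76.0% lower than the control mean of 1.90 ± 0.685 (SD, n = 3). The log2 fold change was -0.97 ± 0.19 (95% confidence interval -1.41 to -0.54), with an unadjusted p of 0.000853 and an adjusted p of 0.104 (limma). Adamts16 passed the filter only through its control values, which favours a lower direction, so its fold and p are given as a description. A pseudocount of 0.1 in place of 1 gave a log2 fold change of -1.84. With libraries weighted by their estimated quality the adjusted p was 0.0437 (limma with array weights). Under that setting more genes passed over the whole table as well, and this value too is only a description. Its relative Adamts18 was at 26.7 ± 2.24 and 28.6 ± 1.43 FPKM, with overlapping groups.

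Of the procollagen N-propeptidases, which trim fibrillar procollagens before fibrils form, only Adamts14 was tested (chr10:61197111-61273438). It was at 5.29, 7.34 and 7.16 FPKM in controls and 2.45, 4.32 and 4.62 under blebbistatin. The groups were apart, and replicate 1 was the lowest library in each. The log2 fold change was -0.68 ± 0.20 (95% confidence interval -1.14 to -0.23), with an unadjusted p of 0.00827 and an adjusted p of 0.256 (limma). Without treated replicate 1 it was -0.46. Adamts3 and Adamts2, the other members of that group, had means of 0.307 and 0.0731 FPKM.

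Adamts7 and Adamts12 encode enzymes that cut cartilage oligomeric matrix protein, and both were lower in every treated library than in any control. Adamts7 (chr9:90162977-90200102) was at 40.1, 42.5 and 48.1 FPKM in controls and 35.5, 36.5 and 36.8 under blebbistatin, with a log2 fold change of -0.25 ± 0.09 (adjusted p = 0.394, limma). Adamts12 (chr15:11064789-11346867) was at 2.34, 2.81 and 2.74 FPKM in controls and 1.79, 1.99 and 1.86 under blebbistatin, with a log2 fold change of -0.33 ± 0.10 (adjusted p = 0.287, limma). Comp, which encodes that protein, did not reach the filter.

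Adamts1, Adamts4, Adamts9 and Adamts15 are known to cut hyaluronan-binding proteoglycans such as versican, and in 3 of them the groups overlapped. Adamts4 (chr1:171250421-171259922) was at 24.2, 17.2 and 16.7 FPKM in controls and 13.7, 16.4 and 13.6 under blebbistatin, apart by a margin much smaller than the spread of the controls. Its log2 fold change was -0.37 ± 0.15, with an adjusted p of 0.457 (limma). Adamts1 was at 5.81, 5.59 and 4.94 FPKM in controls and 6.24, 3.36 and 3.27 under blebbistatin, where replicate 1 was the highest of all 6 libraries and the other two the lowest. Adamts15 was at 3.69 ± 0.650 and 4.78 ± 1.47 FPKM and Adamts9 at 3.02 ± 0.410 and 2.90 ± 0.581 FPKM, both with overlapping groups. Over the tested members, the 3 with the asparagine codon had log2 fold changes from -0.37 to 0.28 and the 20 with the glycine codon from -0.97 to 0.40.

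Adamts17 and Adamts19 form another pair of close relatives. Adamts17 (chr7:66839734-67152625), the most abundant ADAMTS member, was at 39.8, 43.7 and 41.0 FPKM in controls and 47.5, 41.3 and 44.0 under blebbistatin, which overlapped (log2 fold change 0.09 ± 0.09, adjusted p = 0.945, limma). Adamts19 was the only member higher at an unadjusted p under 0.05. It was at 3.53, 3.79 and 4.16 FPKM in controls and 4.91, 4.88 and 4.97 under blebbistatin, all above the controls (log2 fold change 0.30 ± 0.09, unadjusted p = 0.0108, adjusted p = 0.281, limma). Adamts10, which acts on fibrillin microfibrils, was at 15.9 ± 5.65 and 14.1 ± 3.10 FPKM, with replicate 3 the highest library in each group. Adamts13, the protease of von Willebrand factor, was at 9.38, 6.87 and 6.89 FPKM in controls and 6.18, 6.58 and 6.60 under blebbistatin, lower without overlap but close to it.

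**Figure D3:**
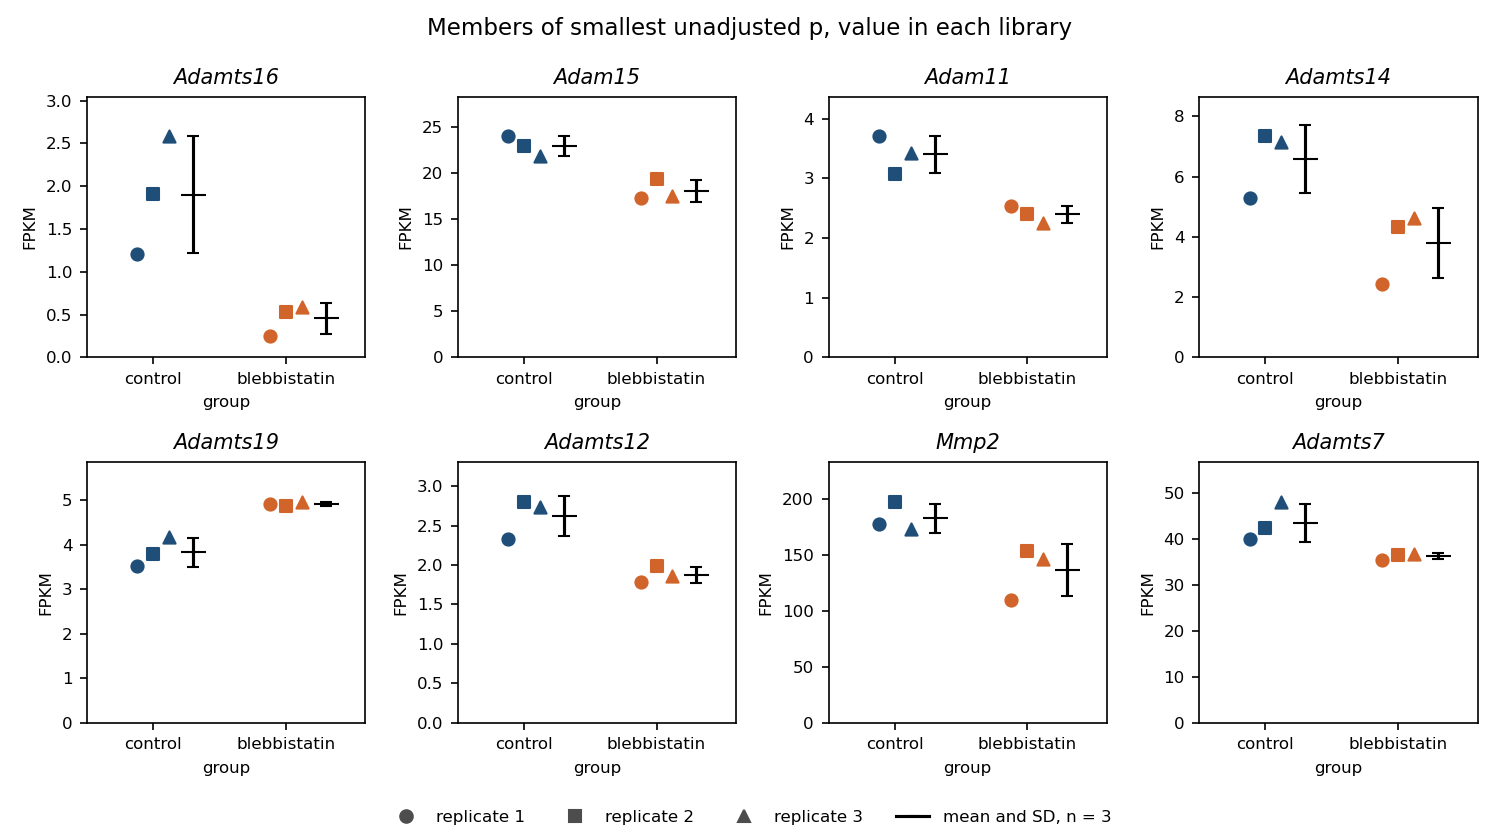
FPKM in each library for the 8 members of smallest unadjusted p, with the axis starting at 0, points for replicates 1 to 3 and the mean with SD (n = 3) beside them. The groups do not overlap in any of the 8 panels, and only Adamts19 is higher in treated libraries (4.92 ± 0.0479 against 3.83 ± 0.320 FPKM).

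In none of the 3 tested inhibitors were the groups apart. Timp2, the inhibitor that also takes part in the activation of Mmp2 (chr11:118301060-118355411), was at 26.6, 27.5 and 24.3 FPKM in controls and 36.0, 29.7 and 24.9 under blebbistatin, which overlapped. Its log2 fold change was 0.19 ± 0.13 (adjusted p = 0.838, limma). Timp3, which binds to the matrix and also inhibits Adam17 and several ADAMTS enzymes, was at 12.7, 18.1 and 14.8 FPKM in controls and 14.0, 16.3 and 15.0 under blebbistatin. Timp1 was at 1.76, 1.26 and 1.49 FPKM in controls and 1.94, 1.59 and 0.983 under blebbistatin. Both had differences near 0 (adjusted p = 0.999 for each, limma), with 95% confidence intervals of -0.30 to 0.30 for Timp3 and -0.39 to 0.36 for Timp1 on the log2 scale, which leave room for differences as large as that of Mmp14. Timp4 was listed above 0 only in control replicate 3, at 0.0812 FPKM.

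**Figure D4:**
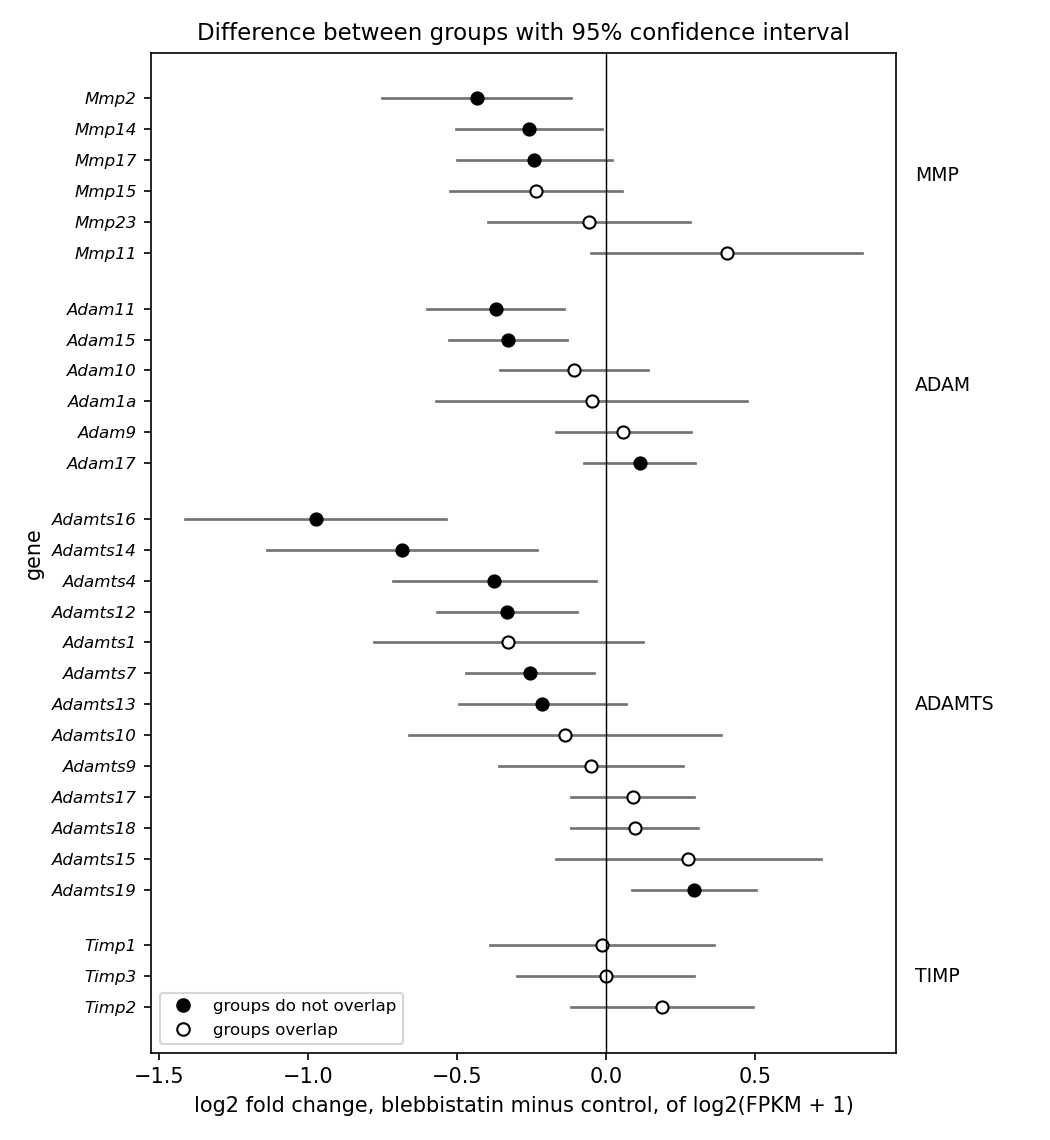
Log2 fold change of log2(FPKM + 1), blebbistatin minus control, for the 28 tested members by subfamily, with 95% confidence intervals as bars. Filled points mark the 13 members whose groups do not overlap; Adamts16 lies lowest at -0.97 and Mmp11 highest at 0.40.

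The median log2 fold change was -0.24 over the 6 tested MMPs, -0.08 over the 6 ADAMs, -0.21 over the 13 ADAMTS members and -0.00 over the 3 TIMPs. Differences between these medians were not tested. Treated replicate 1 was the lowest library for 9 of the 28 members and the highest for 7, so it lay at the edge in both directions. Treated replicate 3 was the lowest for 7 and control replicate 1 the highest for 8.

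At the level of transcripts, 31 of the 121 annotated member transcripts reached 1 FPKM, covering all 28 tested members, of which 21 have a single annotated transcript. None passed an adjusted p under 0.05 (limma; 0.00692% of all 14460 transcripts did), and at an unadjusted p under 0.05 9 were lower and 1 was higher, where 4.28% and 3.8% of all transcripts were. The 9 include the transcript of Adamts16, which passed the filter only through its control values. Adam15 was expressed mainly as NM_009614, which made up 85.0% ± 4.02 of the gene in controls and 85.2% ± 2.22 under blebbistatin (SD, n = 3). Adam17 was almost wholly NM_009615, at 94.9% ± 1.02 and 93.8% ± 2.05. Adamts10 was split over 3 transcripts, of which the coding NM_172619 made up 51.7% ± 7.37 and 47.6% ± 7.35 and the rest was assigned to NR_037707 and NR_037708, which RefSeq lists as noncoding. The shares of 6 transcripts of these 3 genes were tested, and none passed (limma; 0.0% of 4997 shares did) or had an unadjusted p under 0.05.

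Most of the weakly expressed members were far below the filter: 38 of the 56 had a mean under 0.1 FPKM. The highest of them were Adam8 at 0.895 FPKM, Adam22 at 0.705 and Adamtsl5 at 0.422. Of the 36 that were above 0 in at least 1 library, 7 were lower and 1 was higher without overlap between the groups, where 5.68% and 4.69% of all 6868 such genes were. Mmp25, among the 7, was above 0 only in controls, at about 1 to 2 fragments, so no other direction was possible for it. With no filter on low values, 5 of the 36 were lower and 1 was higher at an unadjusted p under 0.05, where 4.79% and 3.0% of those genes were, and the smallest adjusted p was 0.301 (limma). The groups were apart in 5 of these 6 and overlapped in Adam23.

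The clearest of these was Adamts6, a fibrillin-directed relative of Adamts10, at 0.420, 0.539 and 0.670 FPKM in controls and 0.239, 0.281 and 0.325 under blebbistatin. These values stand for about 56 to 90 fragments in controls and 32 to 42 in treated libraries. Mmp16 (MT3-MMP), another membrane-type enzyme, was at 0.474, 0.493 and 0.362 FPKM in controls and 0.214, 0.320 and 0.164 under blebbistatin, without overlap. Mmp9, the second gelatinase, was at 0.494, 0.198 and 0.200 FPKM in controls and 0.0787, 0.101 and 0.161 under blebbistatin, at most 43 fragments in any of them. Adamtsl3 was the only one higher, at 0.0615, 0.0593 and 0.0605 FPKM in controls and 0.232, 0.127 and 0.135 under blebbistatin.

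The MMPs at or near 0 included a whole gene cluster. Mmp13, Mmp12, Mmp1b, Mmp3, Mmp1a, Mmp10, Mmp8, Mmp27, Mmp20 and Mmp7, the collagenases, stromelysins, matrilysin and their relatives, lie together at chr9:7272513-7699416 (mm10). The highest value of any of these 10 genes in any library was 0.0675 FPKM (Mmp13, treated replicate 1), and 6 were listed at 0 throughout. This holds in both groups. Most of their promoters hold the letters TGANTCA, with any base at N, a loose form of the AP-1 motif. AP-1 is known to drive several of these genes in injured or inflamed tissue. The pattern reads the same on both strands, and both were searched in windows from 250 bases before to 50 after the start (RefSeq, GRCm38.p6). It was found in 8 of the 10 promoters of the cluster (not in those of Mmp8 and Mmp27), in 5 of the 43 other members with a promoter in the table and in 2425 of 27025 genes (8.97%). None of the 18 tested members with a promoter there held it. The match of Mmp20 was TGAATCA, and a match describes the letters only. The 30 bases around it are shown for 5 genes of the cluster, with the motif in capitals.
Mmp13 (chr9:7272467-7272496, plus strand): accccaaagtggTGACTCAtcactatcatg
Mmp12 (chr9:7347318-7347347, plus strand): tgacatcaacagTGAGTCAgatagaggatt
Mmp3 (chr9:7445764-7445793, plus strand): tggaagcaattaTGAGTCAgttttcgggtg
Mmp10 (chr9:7502267-7502296, plus strand): atagcacccatgTGAGTCAtgcttagtgac
Mmp7 (chr9:7692015-7692044, plus strand): aaagtgtgcaaaTGAGTCAcctatttccac
The motif lay between 35 and 63 bases before the start in these 5 genes, and the core was TGACTCA in Mmp13 and TGAGTCA in the other four.

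Other genes of the same proteolytic system were read from lists chosen by function, and none of their tested members passed (limma, adjusted p under 0.05). Of 8 tested activators and membrane regulators of MMPs, 4 had a higher and 4 a lower treated mean, and none had an unadjusted p under 0.05. Furin, the convertase that removes the propeptide of Mmp14 and Mmp11, was at 53.1 ± 4.29 and 47.4 ± 4.01 FPKM, and Cav1, the caveolar scaffold, at 11.8 ± 1.20 and 13.3 ± 1.00 FPKM (SD, n = 3).

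Of 8 tested partners of Adam10 and Adam17, 6 had a lower treated mean, where 44.8% of all genes tested were lower on the log2 scale. Tspan15, a tetraspanin that guides Adam10, was at 4.45 ± 0.713 FPKM in controls and 3.14 ± 0.266 under blebbistatin without overlap (log2 fold change -0.39 ± 0.12, unadjusted p = 0.0110, adjusted p = 0.282, limma). Tspan14, another tetraspanin partner, was at 73.5 ± 4.57 and 68.7 ± 2.12 FPKM. Among 7 tested shed ligands and receptors, Cdh1, the E-cadherin gene, was at 128 ± 17.7 and 140 ± 12.4 FPKM, and the adhesion molecule L1cam at 2.32 ± 0.458 and 2.08 ± 1.06 FPKM. None of the 7 had an unadjusted p under 0.05.

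Plasminogen activation, a serine protease route that can activate MMPs, held the list gene of smallest p. Serpine2, an inhibitor of plasminogen activators and thrombin, was at 131 ± 6.14 FPKM in controls and 86.3 ± 13.1 under blebbistatin without overlap (log2 fold change -0.61 ± 0.12, unadjusted p = 0.00107, adjusted p = 0.115, limma). S100a10, which with annexin A2 docks plasminogen at the cell surface, was at 161 ± 36.3 and 220 ± 32.5 FPKM (unadjusted p = 0.0288, adjusted p = 0.416, limma). The other 3 tested genes of that list were at an unadjusted p above 0.05.

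Of the 7 membrane serine proteases and their inhibitors, 6 had a lower treated mean, where 44.8% of all genes tested were lower on the log2 scale. Hpn (hepsin) was at 24.3 ± 2.96 and 19.6 ± 0.362 FPKM and Tmprss2 at 13.9 ± 0.408 and 11.9 ± 1.58 FPKM, both without overlap (adjusted p = 0.356 and 0.601, limma). Bmp1, the tolloid protease that removes the C-propeptide of procollagens, was at 34.1 ± 3.80 and 30.0 ± 2.47 FPKM. Pcolce, which enhances it, was at 1.39 ± 0.343 and 1.70 ± 0.358 FPKM.

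ADAMTS substrates were the list with the most higher means, 5 of 6 tested genes, where 6365 of all 11540 genes were higher on the log2 scale. None of the 6 had an unadjusted p under 0.05 (limma). Comp of the same list, under the filter, was lower without overlap. Vcan, the hyaluronan-binding proteoglycan versican, was at 17.3 ± 1.58 and 27.2 ± 13 FPKM, with a wide spread in treated libraries. Nid1, a linker protein of the basement membrane, was at 2.65 ± 0.541 and 3.39 ± 0.0707 FPKM without overlap (adjusted p = 0.546, limma). Among 7 tested cathepsins and cystatins, the lysosomal protease Ctsl was at 78.1 ± 15.3 and 92 ± 7.41 FPKM and the inhibitor Cst3 at 75.1 ± 15.7 and 88.6 ± 6.79 FPKM. Of 5 tested relatives outside the 5 subfamilies, the membrane peptidase Mme was at 3.63 ± 0.850 and 4.90 ± 1.40 FPKM and the ADAMTSL-related Thsd4 at 7.82 ± 1.25 and 9.35 ± 1.56 FPKM, both overlapping.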

How the data were processed

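RNA of E13 submandibular gland was purified on RNeasy columns and made into TruSeq RNA libraries, 3 control and 3 treated with blebbistatin, per the labels' protocols. The submitters' processing notes name Cufflinks 2.2.1, Bowtie2 2.2.3, TopHat2 2.0.13 and build mm10. The authors deposited FPKM per gene and per RefSeq transcript, per the file headers. FPKM are scaled to the library total, so no count model was used. BB in a column name was read as blebbistatin, and a missing number as replicate 1.

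Genes with a mean of at least 1 FPKM (11540 of 24067) entered a limma 3.58.1 test (R 4.3.3) of log2(FPKM + 1) (empirical Bayes with a mean-variance trend, treatment as the only term, all 6 libraries), with Benjamini-Hochberg adjustment over all of them at 0.05. Fold changes on this scale understate the change of low genes. Transcripts were tested likewise, and transcript shares on the arcsine square root scale, for genes of 5 FPKM or more on average and shares between 0.05 and 0.95. On simulated data of 11540 genes, the test recovered 84% of 100 genes with a simulated log2 difference of 1 and 96% of 100 with one of 2, with 9 of 189 calls false. Differences smaller than 1, as in every tested member (-0.97 to 0.40), were not simulated, so recovery at those sizes is not known.

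Every tested member is given with its means or library values; fold changes and p-values are given for the 3 of smallest p and the 2 of highest level in each subfamily and for all tested TIMPs, with some others added after their values were seen, and from each list of other genes the 2 of smallest p are named. The members and lists were chosen with earlier results of these data known. Alternatives were another pseudocount, other filters, 2 rescalings, array weights, a replicate block and leaving out each library. Zinc-site sequences came from GENCODE M21 transcripts and promoters from the RefSeq table.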

Additional observations from a re-analysis of the deposited data

How the results depend on the processing

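Direction and side of the threshold were kept in 232 of 241 recomputed fold changes of 19 named members over 13 alternatives. Of the other 9, 3 moved past the threshold and 6 changed sign, all of these near 0: Timp1 was 0.0135 with quantile normalization, and without single libraries it ranged from -0.14 to 0.15 and Timp3 from -0.12 to 0.12. Members past the threshold were 0 in the main analysis, 1 with array weights (Adamts16, adjusted p = 0.0437, limma) and 2 with the replicate block (Adamts16, 0.0338, and Adamts14, 0.0383). The labels do not say that replicate numbers pair the libraries. Same-numbered libraries deviated together with correlations of 0.182, 0.094 and 0.253, and every library correlated best with its own number, a hint from the data and not from the design. Over all genes, 9 passed in the main analysis, 1 with no filter, 27 with a minimum of 5 FPKM, 14 with quantile normalization, 2 with median-of-ratios rescaling, 57 with array weights, 144 with the replicate block, and 1 to 19 without single libraries. Members with groups apart were 13, against 21 with no filter and 8 with a minimum of 5 FPKM, where more and fewer members were counted. With no filter, 2 transcript shares passed, both of Mmp19 (mean 0.131 FPKM). The cause of these changes in counts of passing genes was not tested. Depth limits the low members most: Timp1 rests on about 23 to 46 fragments per library and Adamts16 on about 35 in treated replicate 1. With 3 libraries per group, intervals as wide as that of Timp1 do not show that levels were alike.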

Other observations

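Several members of low level were assigned almost wholly to 1 of their RefSeq transcripts, and to a different one from library to library. For Mmp19, a secreted MMP at about 10 to 16 fragments per library, NM_001164197 took 99.948% to 99.968% of the value in controls and NM_021412 took 99.898% to 99.996% under blebbistatin. Such switches also occurred within a group: NM_007403 of Adam8 took 99.7%, 0.361% and 99.8% in control replicates 1 to 3, at about 61 to 114 fragments. The Mmp19 gene was at 0.136 ± 0.0323 FPKM in controls and 0.126 ± 0.0267 under blebbistatin (SD, n = 3), and it shares 789 exonic bases with Tmem198b on the opposite strand. These genes lay under the level at which shares were tested.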
